A study of Homo sapiens and Mus musculus with 20 samples.

Results

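Transcripts of 10 amino acid transporter genes were followed under 3 treatments of IMR90, a line of human fetal lung fibroblasts. The genes were SLC7A14, SLC7A11, SLC7A5, SLC3A2, SLC7A1, SLC1A5, SLC1A4, SLC38A1, SLC38A2 and SLC6A9, and they were taken by symbol from the 17554 genes listed in at least 1 of the 3 comparisons. SLC7A14 was chosen by its low values after A485, so its levels in that comparison are given as a description with no test. The other 9 genes, and the gene lists used below, were chosen with earlier results of these data known. Which values, if any, chose them is not recorded, so their p-values and counts describe these libraries only. All 10 genes were listed in each comparison and had a mean of at least 10 there, the limit for testing.

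The cells carried no genetic change (labelled WT) and came from a single line, so the libraries of a group are samples of 1 donor's cells. A485 inhibits the acetyltransferase p300 and was compared with Control2. MS-275 inhibits class I histone deacetylases and was compared with Control3, and pyruvate, the end product of glycolysis, was compared with Control6. The labels give no treatment for the control libraries and no dose or duration, and the study describes the pyruvate experiment as one on senescent cells. IMR90 cells were grown in medium with serum and added nonessential amino acids, which the controls shared. Each group had 2 libraries and no label says whether they came from separate cultures, so p-values measure the spread between these libraries, which may be technical. The comparisons asked how expression changes when writers or erasers of histone lactylation are inhibited or when its metabolic source is raised.

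Cells take up most amino acids through carriers in the plasma membrane. SLC3A2 is a heavy chain that holds the light chains SLC7A11 and SLC7A5 at the cell surface, where the former exchanges cystine for glutamate and the latter imports leucine and other large neutral amino acids. Many of these genes are targets of ATF4, a transcription factor whose translation rises when amino acids are scarce, and SLC7A11 is also a target of NRF2, which controls antioxidant genes.

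The 12 IMR90 libraries held 24179065 to 46971227 reads over listed genes. Values are read counts per gene divided by a size factor per library, called normalised read counts below. All 11 fibroblast markers were listed in each comparison, and of 12 markers of epithelial, endothelial and blood cells 3, 2 and 1 were listed after A485, MS-275 and pyruvate, with summed normalised read counts of at most 217 in any library. EPCAM, VWF and LYZ made up those sums, and the other 9 markers were in none of the lists. The transcripts were measured in bulk, so fewer cells with a transcript and less of it per cell cannot be told apart.

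Promoter sequences from RefSeq (GRCh38.p14, 250 bases before to 50 after each start) matched 9 of the 10 genes with 15 promoters. SLC7A11 had no entry. They were searched on both strands for TGATGNAA, the C/EBP-ATF response element through which ATF4 acts, for CACGTG, an E-box, and for TGACNNNGC, the antioxidant response element through which NRF2 acts. TGATGNAA was present at 5 of the 9 genes and in 4.46% of the 27305 symbols of the table. CACGTG was present at 2 genes and in 8.77% of symbols, and TGACNNNGC at 4 genes and in 16.06% of symbols. No match overlapped another. The shares are descriptions, since 4 of the 9 genes had more than 1 promoter, and a match is not evidence of binding. The TGATGNAA matches are shown because many of these genes are known targets of ATF4, with the match in capitals and read 5′ to 3′ on the gene's strand. In SLC1A4 and SLC3A2 the match lies on the opposite strand and so appears as its reverse complement.
SLC1A4 (chr2:64989382-64989409, plus strand): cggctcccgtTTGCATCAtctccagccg
SLC3A2 (chr11:62881726-62881748, plus strand): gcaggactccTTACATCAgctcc
SLC38A1 (chr12:46266503-46266530, minus strand): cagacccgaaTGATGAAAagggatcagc
SLC7A1 (chr13:29595664-29595691, minus strand): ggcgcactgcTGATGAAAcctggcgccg
SLC1A5 (chr19:46784894-46784921, minus strand): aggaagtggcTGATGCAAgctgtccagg

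These matches began 7 bases before the start in SLC1A4, 4 before it in SLC38A1 and 97 before a downstream start of SLC1A5. They began at base 38 after the start in SLC3A2 and at base 8 after it in SLC7A1. The E-boxes of the genes for the leucine carrier SLC7A5 and the glutamine carrier SLC1A5 began 130 and 50 bases before a start, in SLC1A5 a different start from that of its TGATGNAA match.
SLC7A5 (chr16:87869622-87869647, minus strand): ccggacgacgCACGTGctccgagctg
SLC1A5 (chr19:46787328-46787353, minus strand): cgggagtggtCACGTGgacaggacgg

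The 250 bases upstream of SLC7A14, the gene with the lowest values after A485, are shown next and held none of the 3 motifs, which says only that these letters are not in this window.
SLC7A14 (chr3:170586076-170586325, minus strand): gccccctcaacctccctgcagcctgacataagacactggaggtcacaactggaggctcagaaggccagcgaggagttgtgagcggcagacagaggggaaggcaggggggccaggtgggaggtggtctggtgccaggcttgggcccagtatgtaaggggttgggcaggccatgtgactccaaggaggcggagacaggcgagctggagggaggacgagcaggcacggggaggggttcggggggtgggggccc

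After A485 the transcripts of every transporter were lower in both treated libraries than in both controls. The share of all genes with this pattern is not given here, so how common it was cannot be judged. SLC7A14 was chosen by its low values after A485. Of the 9 genes tested, 9 were called lower, against 7.06% of the 16084 genes tested that were called lower and 3.31% called higher. A call needed an adjusted p under 0.05 (limma, Benjamini-Hochberg adjustment over all genes tested) and an absolute log2 fold change above 1. The median log2 fold change of these 9 genes was -2.47, and the median over all genes was 0.0088. Summed over the 10 genes, they held 0.384% and 0.264% of listed reads in the Control2 libraries and 0.123% and 0.0932% in the A485 libraries.

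SLC7A14 belongs by sequence to the cationic amino acid transporters and is known as an intracellular protein. Its normalised read counts were 459 and 1933 in the Control2 libraries and 8.43 and 0 in the A485 libraries, from 429, 1579, 10 and 0 reads. Both treated libraries lay far below both controls, but the controls also differed widely from each other. The log2 difference was -8.26 (SE 1.19), which depends on the pseudocount and became -6.14 with a pseudocount of 10.

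The cystine carrier had the next lowest ratio. SLC7A11 measured 18151 and 12749 in control and 105 and 266 in A485 libraries, a log2 fold change of -6.50 (SE 0.45, limma adjusted p 0.00184). The groups did not overlap. SLC7A11-AS1, an antisense gene that shares 865 exonic bases with it, had 119 and 24.5 in control and 0 in both A485 libraries. The strand setting of the counting is not given in the sources used here, so reads of the pair cannot be told apart, although the antisense gene reached at most 0.654% of the value of SLC7A11.

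The genes of the CD98 heavy chain and its leucine-carrying partner both fell. SLC3A2 measured 14638 and 9798 in control and 2437 and 2283 after A485 (log2 fold change -2.34, SE 0.23, limma adjusted p 0.00382). SLC7A5 measured 20524 and 11572 in control and 2734 and 2628 in A485 libraries (-2.52, SE 0.28, limma adjusted p 0.00587). For both genes the treated libraries lay close together while the controls were spread. SLC7A1, the main carrier of arginine and lysine, measured 8783 and 5863 in control and 965 and 1739 in A485 libraries (-2.47, SE 0.33, limma adjusted p 0.01).

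Carriers of glutamine and small neutral amino acids also fell. SLC1A5, an exchanger of glutamine, measured 12502 and 11892 in control and 1356 and 1375 after A485 (log2 fold change -3.16, SE 0.15, limma adjusted p 0.00089). This gene had the smallest SE and the smallest adjusted p of the 9. SLC1A4, which exchanges alanine, serine, cysteine and threonine, measured 2322 and 1585 in control and 612 and 491 in A485 libraries (-1.81, SE 0.26, limma adjusted p 0.0117). SLC6A9, a glycine carrier, measured 1432 and 1244 in control and 137 and 85.5 in A485 libraries (-3.61, SE 0.31, limma adjusted p 0.00285). Its fold change was the lowest after those of SLC7A14 and SLC7A11.

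The sodium-coupled importers SLC38A1 and SLC38A2 had the smallest falls. SLC38A1 measured 12246 and 12290 in control and 2811 and 5168 after A485 (log2 fold change -1.69, SE 0.30, limma adjusted p 0.0209). SLC38A2 measured 74598 and 57570 in control and 29780 and 19635 in A485 libraries (-1.44, SE 0.28, limma adjusted p 0.0282). SLC38A2 was not called with quantile normalization, where its log2 fold change was -0.67, nor in a fit over all 12 libraries (limma adjusted p 0.226), and it stayed the most abundant of the 10 genes per kilobase.

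**Figure D1:**
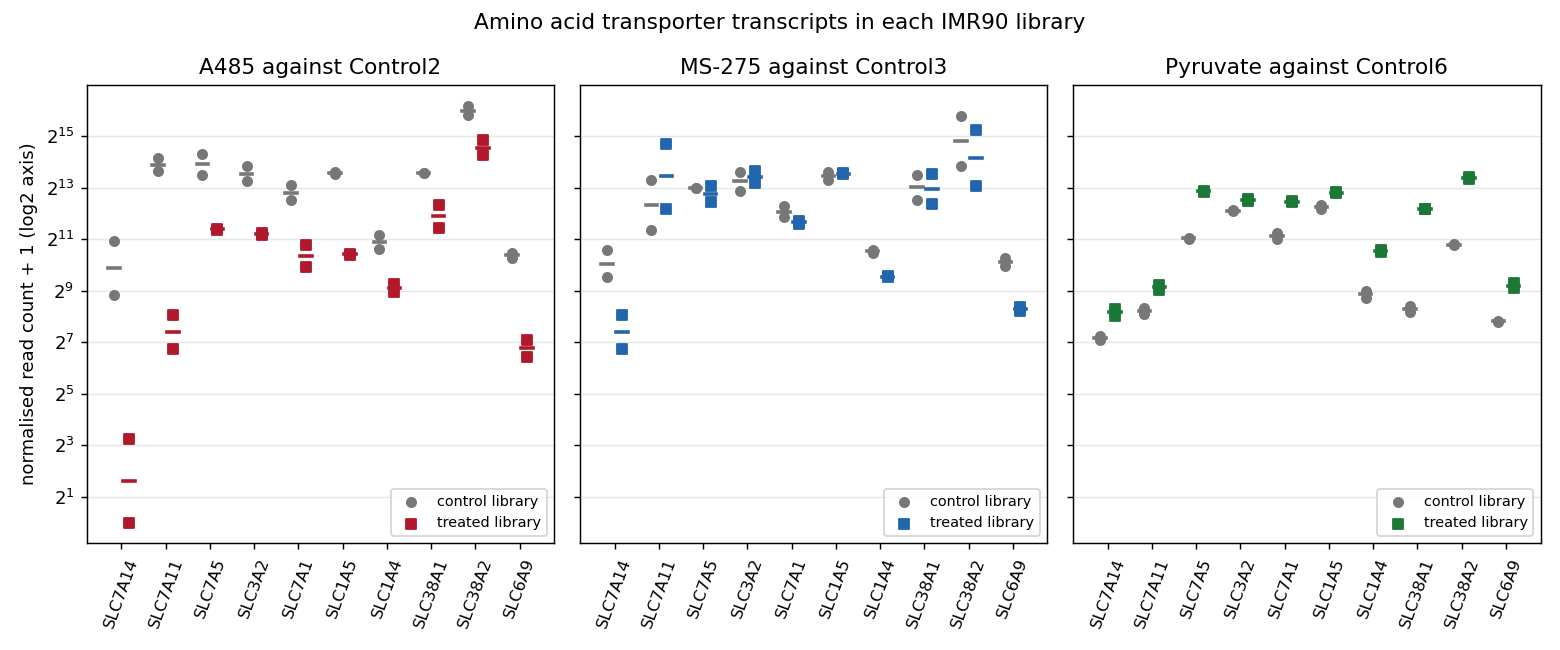
Normalised read count plus 1 (log2 axis) of each transporter gene in each library, with control libraries as grey circles, treated libraries as coloured squares and the mean of the 2 log2 values as a bar. In the A485 panel every square lies below both circles, in the MS-275 panel the groups overlap for 6 of 10 genes, and in the pyruvate panel every square lies above both circles.

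The count of 9 calls rested on each library, since leaving 1 out left 3 calls without A485 replicate 1, 4 without A485 replicate 2, 5 without control replicate 1 and 6 without control replicate 2. The sign of each fold change was kept in these fits. Without the intensity trend in the limma fit 5 of 9 were called, and SLC7A1, SLC1A4, SLC38A1 and SLC38A2 were lost. Markers of the fibroblast itself were lower as well, with 8 of 11 called lower and 0 higher, against 7.06% and 3.31% of all genes. The summed marker level was 1915493 to 2374596 in control and 577185 to 702915 in A485 libraries. DCN (decorin) had a log2 fold change of -4.50, PDGFRB -3.07, LUM -2.80 and THY1 -2.10. Of the markers of other cell types, EPCAM measured 64.2 and 47.7 in control and 208 and 177 in A485 libraries and was called higher (1.78, limma adjusted p 0.0367). VWF measured 34.2 and 102 in control, was listed at 0 in both A485 libraries and was called lower. The part of these markers in the transporter values was not tested. With libraries scaled to equal totals the median over all genes moved to 0.40 and the calls over all genes were 1670 higher and 915 lower, in place of 532 higher and 1135 lower, while the 9 transporters remained called lower.

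After MS-275, 0 of the 10 transporters were called, against 0% of the 15883 genes tested by limma, of which 1730 had an unadjusted p under 0.05. On the recovered reads edgeR called 0 genes and DESeq2 575, SLC7A14 and SLC6A9 among them (DESeq2 adjusted p 0.00684 and 0.0052). With the replicate number as a block in limma, 2183 genes were called, 3 of them transporters (SLC7A14 and SLC6A9 lower, SLC7A11 higher). No label says that the numbers pair libraries, so the block is an alternative only. The controls of this comparison differed strongly from each other, and the median absolute log2 difference between replicates over all genes was 0.58 in control and 0.61 in MS-275 libraries, against 0.33 and 0.29 in the A485 comparison. Both MS-275 libraries lay below both controls for 4 of 10 transporters, against 19.3% of all genes tested, and above both controls for 0 of 10, against 19.5%.

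The 4 transporters without overlap were SLC7A14, SLC6A9, SLC1A4 and SLC7A1. SLC7A14 measured 1525 and 732 in the Control3 libraries and 269 and 106 in the MS-275 libraries. Its log2 difference was -2.50 within replicate number 1 and -2.78 within number 2, with a fold change of -2.64 (SE 0.64, limma adjusted p 0.28). SLC6A9 measured 1227 and 989 in control and 332 and 294 in MS-275 libraries. The differences within numbers were -1.88 and -1.75, and the fold change was -1.81 (SE 0.33, limma adjusted p 0.216). For the glycine carrier the spread within each group was small beside the distance between groups. SLC1A4 measured 1409 and 1545 in control and 740 and 758 in MS-275 libraries, with differences of -0.93 and -1.03 within numbers (limma adjusted p 0.37). SLC7A1 measured 5031 and 3716 in control and 3117 and 3359 in MS-275 libraries, with smaller differences of -0.69 and -0.15.

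SLC7A11 was the transporter with the highest fold change after MS-275. It measured 10017 and 2608 in control and 26872 and 4624 in MS-275 libraries, so each MS-275 library was above the control of its own number, by 1.42 and 0.83 on the log2 scale, while the groups overlapped. The fold change was 1.12 (SE 1.07, limma adjusted p 0.836), and it was -0.14 without MS-275 replicate 1. SLC7A11-AS1 measured 15.8 and 3.03 in control and 78.4 and 14.9 in MS-275 libraries, in the same order as the sense gene. SLC38A2 showed the same spread between numbers, with 57398 and 14755 in control and 38800 and 8572 in MS-275 libraries. Its differences within numbers were -0.56 and -0.78.

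For the remaining 4 transporters the differences lay between -0.57 and 0.32. SLC7A5 had -0.57 and 0.07 within numbers, SLC3A2 0.32 and 0.02, SLC1A5 0.26 and -0.06, and SLC38A1 0.03 and -0.14. SLC1A5 measured 10114 and 12460 in control and 12118 and 11946 in MS-275 libraries, and its fold change of 0.10 became -0.043 with equal library totals and -0.048 with quantile normalization. Over the 10 transporters, 7 moved in the same direction within both numbers, and the share over all genes tested was 79.0%. In 2 of them, SLC7A14 and SLC6A9, both differences exceeded 1 in size, and the share over all genes was 11.7%.

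**Figure D2:**
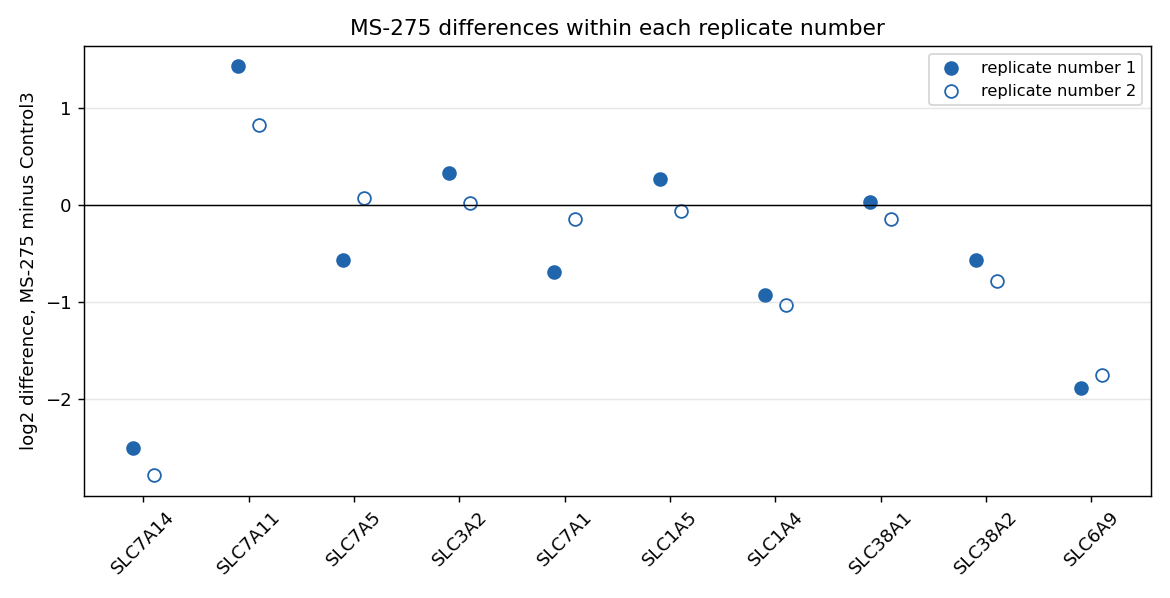
Log2 difference in normalised read count between the MS-275 and Control3 libraries of the same replicate number for each transporter, with filled points for number 1 and open points for number 2. SLC7A14 and SLC6A9 lie below -1 in both, SLC7A11 lies above 0 in both at 1.42 and 0.83, and 3 genes have points on both sides of 0.

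After pyruvate the transporters were higher. All 10 had both pyruvate libraries above both Control6 libraries. The share of all genes with this pattern is not given here, so how common it was cannot be judged. All 10 also had an adjusted p under the threshold, as did 9713 of the 12013 genes tested. Of the 10, 6 were called higher and 0 lower. Over the 12013 genes tested, 31.0% were called higher and 23.1% lower, so this comparison had a high background of calls. The median log2 fold change of the 10 genes was 1.37, and that of all genes was -0.0069. The transporters held 0.0571% and 0.0576% of listed reads in control and 0.187% and 0.187% in pyruvate libraries.

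The sodium-coupled neutral amino acid importers had the largest fold changes as tested, an order that did not hold once a length and GC trend was removed. SLC38A1 measured 340 and 285 in control and 4657 and 4620 in pyruvate libraries, a log2 fold change of 3.89 (SE 0.10, limma adjusted p 1.33e-10). SLC38A2 measured 1796 and 1763 in control and 11040 and 10421 in pyruvate libraries (2.59, SE 0.06, limma adjusted p 9.59e-11). Replicates of these genes lay within a narrow band, and the groups were far apart.

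SLC7A5, the leucine carrier, measured 2064 and 2148 in control and 7343 and 7602 with pyruvate (log2 fold change 1.83, SE 0.07, limma adjusted p 8.08e-10). Its heavy chain SLC3A2 measured 4442 and 4452 in control and 5816 and 6000 in pyruvate libraries, and its fold change of 0.41 was not called. SLC1A4 measured 515 and 424 in control and 1452 and 1525 in pyruvate libraries (1.67, SE 0.12, limma adjusted p 1.23e-07). SLC1A5, of the same family, measured 4665 and 5169 in control and 7262 and 7160 in pyruvate libraries, and its fold change of 0.55 was not called.

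SLC6A9 measured 221 and 228 in control and 550 and 629 with pyruvate (log2 fold change 1.39, SE 0.15, limma adjusted p 4.14e-06). SLC7A1 measured 2415 and 2041 in control and 5581 and 5704 in pyruvate libraries (1.35, SE 0.08, limma adjusted p 4.5e-08). SLC7A14 measured 135 and 151 in control and 261 and 311 in pyruvate libraries, and its fold change of 0.99 lay just under the limit, while edgeR (1.04) and DESeq2 called it just past the limit. SLC7A11 measured 318 and 277 in control and 521 and 603 in pyruvate libraries, with a fold change of 0.92.

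Fold changes after pyruvate ran with base composition. Over all genes with a known length and GC content, 99.0% of those listed, Spearman's rho between the log2 fold change and exonic GC content was -0.70, a description across genes, which are not independent. After removal of a length and GC trend from each library, the fold change of SLC7A14 was -0.53 and that of SLC7A11 -0.95, so both changed sign. SLC38A2 was at 0.79 and no longer called, SLC38A1 was at 2.15, below SLC7A5 and SLC6A9, and still called, and SLC3A2 and SLC1A5 were called at 1.21 and 1.67. SLC7A5, SLC6A9, SLC7A1 and SLC1A4 remained called at 2.69, 2.42, 1.63 and 1.11. In all 7 of 10 were called higher, and calls over all genes were 1869 higher (15.7%) and 1776 lower (14.9%) in place of 3726 and 2777. The same removal left the 9 calls after A485 in place, with Spearman's rho of -0.11 there and -0.02 after MS-275.

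**Figure D3:**
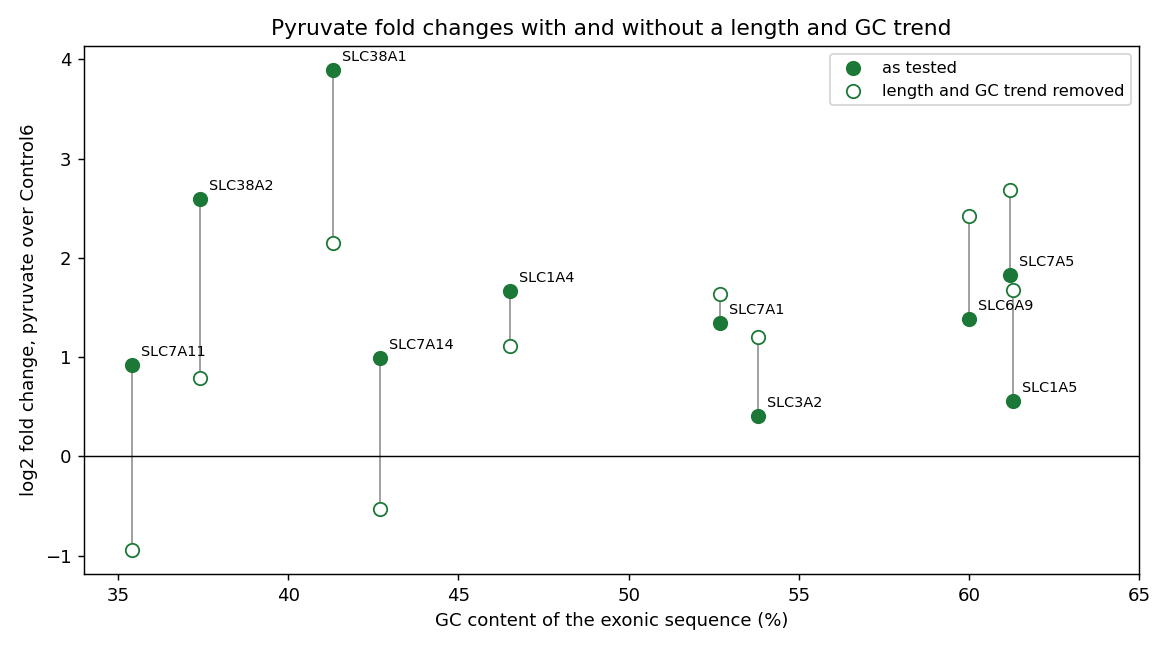
Log2 fold change after pyruvate against the GC content (%) of each gene's exonic sequence, as tested (filled) and after a length and GC trend was removed (open), joined by a line for each gene. Genes under 50% GC moved down, with SLC7A14 and SLC7A11 passing below 0, and genes above 50% GC moved up.

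The differences between treatments were tested with limma, as the contrast of 2 fold changes over their 8 libraries, and SLC7A14 was left out of pairs with A485. Each treatment had its own experiment and control, so treatment cannot be told apart here from experiment, control level or cell state. The 8 libraries shared 1 spread per gene, although replicates were not equally close in the 3 comparisons. A485 and pyruvate differed in 9 of 9 transporters, each lower under A485, against 65.4% of all genes. The differences ran from -2.75 in SLC3A2 to -7.42 in SLC7A11. A485 and MS-275 differed in 4 of 9, against 3.81% of all genes. With the replicate number as a block 9 of 9 differed, but no label pairs the numbers and the share over all genes is not given here. The 4 without the block were SLC7A11 (difference -7.63, SE 1.31, limma adjusted p 0.0246), SLC1A5 (-3.26, SE 0.32, limma adjusted p 0.00399), SLC3A2 (-2.51, SE 0.49, limma adjusted p 0.0369) and SLC7A5 (-2.27, SE 0.49, limma adjusted p 0.0491). This count was 1 without either A485 library or either Control2 library, 2 without Control3 replicate 1 or MS-275 replicate 2, and 2 with equal library totals or with quantile normalization.

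MS-275 and pyruvate differed in 6 of 10 transporters, against 41.1% of all genes. SLC7A14 was among them (difference -3.63, SE 0.73, limma adjusted p 0.00935), with SLC38A1, SLC6A9, SLC1A4, SLC7A5 and SLC7A1. SLC7A11, SLC3A2, SLC1A5 and SLC38A2 did not pass, and the difference of SLC7A11 was 0.21 with an SE of 1.26. With the length and GC trend removed, 9 of 10 differed, against 34.1% of all genes. The difference of SLC7A14 was then -2.20 (SE 0.30, limma adjusted p 0.00269), and that of SLC7A11 was 1.98 (SE 0.42, limma adjusted p 0.012), the only one of the 10 above 0. SLC38A2 did not pass there. The same removal left 9 of 9 differing between A485 and pyruvate and 4 of 9 between A485 and MS-275, with 53.4% and 6.58% of all genes.

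**Figure D4:**
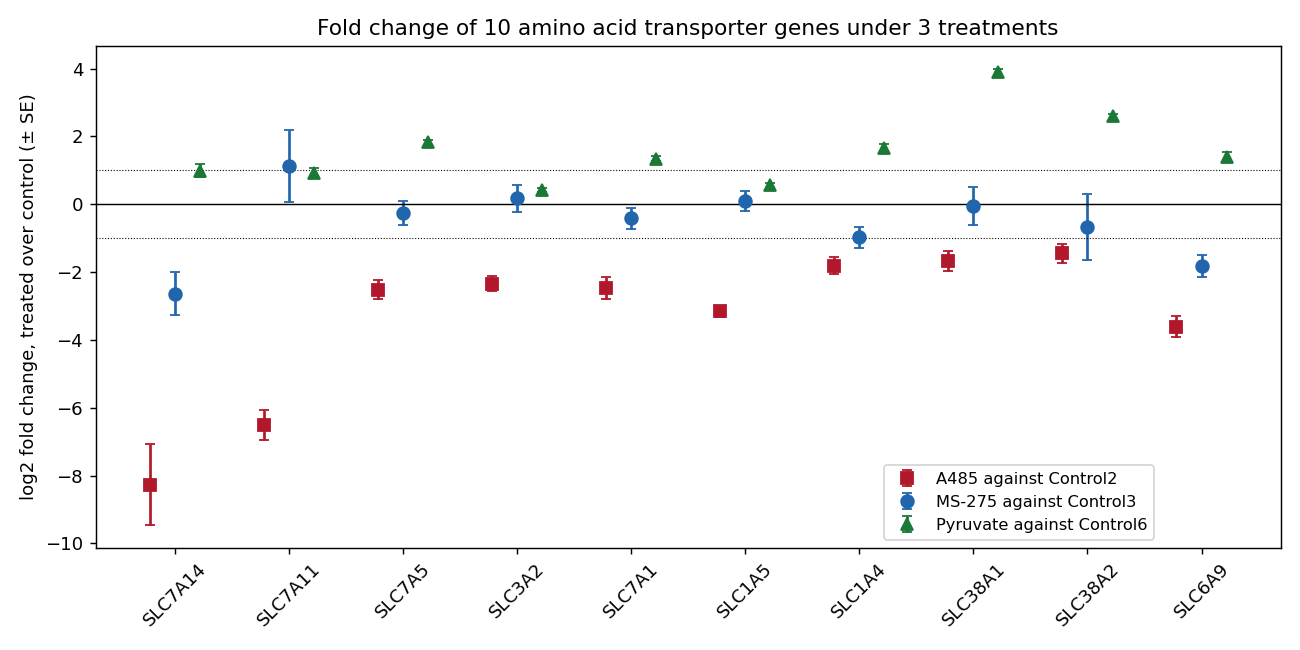
Log2 fold change (treated over control, with SE) of each transporter in the 3 comparisons, with dotted lines at -1 and 1. A485 points lie between -1.44 and -8.26, pyruvate points between 0.41 and 3.89, and MS-275 points between -2.64 and 1.12.

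Levels between genes were compared as RPKM computed here from the recovered reads, with the listed reads as the library total and the exonic length of each gene. In the Control2 libraries SLC38A2 was highest (225 ± 57.2, SD, n = 2), apart from SLC1A5 (80.6 ± 8.81), and SLC7A14 was lowest (2.43 ± 2.00). The genes from SLC1A5 down to SLC7A1 overlapped with their neighbours in this order, as did SLC1A4 and SLC6A9. In the A485 libraries SLC7A11 went from the fifth to the ninth place, at 0.545 ± 0.31 (SD, n = 2), overlapping SLC6A9 just above it. In the Control3 libraries the order was similar, with SLC38A2 at 133 ± 110 overlapping SLC1A5 at 81.3 ± 12.5 (SD, n = 2). In the Control6 libraries SLC1A5 was highest, at 47.3 and 52.7, and SLC38A2 came in the fifth place (9.26 ± 0.08, SD, n = 2), overlapping SLC7A1. After pyruvate SLC38A2 was in the second place at 69.3 ± 2.95, below SLC1A5 at 90.9 ± 1.07 (SD, n = 2), and no neighbours in the order overlapped.

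The control libraries of the 3 experiments were normalised separately, so their levels are set side by side with no test. SLC7A11 was at 43.6 and 27.6 RPKM in Control2, 24.8 and 6.51 in Control3, and 1.11 and 0.975 in Control6. SLC38A1 was at 28.3 and 25.6, then 27.6 and 14.2, then 1.15 and 0.968 in the same order. SLC3A2 varied less, at 53.0 and 32.0, 27.9 and 47.8, and 23.5 and 23.7. Experiment and cell state cannot be told apart here.

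Over the 12 libraries, each centred on the mean of its comparison, the 5 genes whose log2 values were most like those of SLC7A14 among 9768 genes were PABPC4 (Pearson's r 0.983), COL15A1 (0.977), MPP4 (0.966), SLC14A1 (0.958) and MXRA5 (0.958). The libraries share controls and treatments, so these correlations are descriptions. The A485 libraries, whose values chose SLC7A14, entered them, so the places depend on its fall there. All 5 genes were lower after A485, with log2 differences from -1.27 in PABPC4 to -7.11 in SLC14A1. Of the other transporters SLC6A9 was most like it (0.935, place 16) and SLC38A1 least (0.436, place 1614).

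Amino acid transporters outside the set of 10 had calls in 1 direction after A485 and in both after pyruvate. The list held 42 further genes, of which 20 could be tested after A485. Of these 6 were called lower and 0 higher, against 7.06% and 3.31% of all genes, with a median log2 fold change of -1.05. SLC7A2, a second cationic amino acid carrier, measured 3417 and 3296 in control and 1177 and 1043 in A485 libraries (-1.60, limma adjusted p 0.00499). SLC38A5, SLC43A1 and SLC6A6, carriers of glutamine, large neutral amino acids and taurine, had log2 fold changes of -2.98, -1.92 and -1.69 and were called lower. After pyruvate 4 of 18 were called higher and 3 lower, against 31.0% and 23.1% of all genes, with a median of -0.35. SLC7A2 measured 79.6 and 94.4 in control and 3344 and 3422 in pyruvate libraries (5.27, limma adjusted p 8.87e-11), and SLC6A15, SLC38A9 and SLC38A6 had 2.14, 1.72 and 1.01. SLC38A10, SLC1A7 and CTNS, the lysosomal cystine exporter, were lower at -1.76, -1.89 and -1.14. With the length and GC trend removed, SLC7A2 was the 1 gene of this list still called, at 3.49, while 15.7% of all genes were called higher and 14.9% lower. After MS-275 0 of 23 were called and the median was 0.74. The smallest p-values there belonged to SLC38A3 (4.22, a value that depends on the pseudocount, limma adjusted p 0.243) and SLC1A3 (1.76, limma adjusted p 0.333), both of them low in every control.

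Of 17 genes of the amino acid response, 9 were called lower after A485 and 0 higher, against 7.06% and 3.31% of all genes. Their median log2 fold change was -1.71, and 2 of the 17 were above 0. ATF4 itself measured 19676 and 18780 in control and 7523 and 7235 in A485 libraries, and was called lower at -1.38. STC2 (-6.66), PSAT1 of serine synthesis (-3.19), PHGDH of the same pathway (-2.91) and the glutathione-degrading CHAC1 (-2.90) had the smallest adjusted p. ATF5, VLDLR, DDIT3 and EIF2AK4 were among the 8 not called. After pyruvate 6 of 16 were called higher and 2 lower, against 31.0% and 23.1% of all genes. PSAT1 (3.63), PHGDH (2.15), CEBPG (3.65) and EIF2AK4, the kinase that senses uncharged tRNA (1.37), were higher, and STC2 (-1.26) and GCN1 (-1.39) lower, while ATF4 had a fold change of -0.046. With the length and GC trend removed 8 were called higher and 1 lower, against 15.7% and 14.9% of all genes, with PSAT1 at 2.58, PHGDH at 2.78, CEBPG at 2.03, EIF2AK4 at 1.03 and STC2 at -1.04. ATF4 was then at 0.95, so its sign turned, and neither it nor GCN1 was called. After MS-275 0 of 17 were called, and ATF5 (-2.95, limma adjusted p 0.162) and PSAT1 (-1.42, limma adjusted p 0.254) had the smallest p-values.

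Of 10 enzymes and regulators of cystine and glutathione use, 2 were called lower after A485 and 0 higher, against 7.06% and 3.31% of all genes. These were TXNRD1 (log2 fold change -2.53) and CBS (-2.48). TXNRD1, a thioredoxin reductase and NRF2 target, measured 83534 and 57332 in control and 11541 and 12375 in A485 libraries, while NFE2L2, which encodes NRF2, had -0.42 and was not called. After pyruvate 5 of 10 were called higher and 1 lower, against 31.0% and 23.1% of all genes. GCLC (2.17), CTH (2.33), NFE2L2 (1.33) and TXNRD1 (1.23) were higher, and the glutathione synthetase gene GSS was lower (-1.39). With the length and GC trend removed 3 were called higher and 1 lower, against 15.7% and 14.9%. Those higher were GCLC (1.32), CTH (1.39) and CBS (2.12), and the one lower was GCLM (-2.45), while NFE2L2, TXNRD1 and GSS were not called. After MS-275 0 of 10 were called, with GSR at 1.24 (limma adjusted p 0.313) and TXNRD1 at 0.94 (limma adjusted p 0.368).

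Of 22 genes of mTORC1 and its regulation by amino acids, 1 was called higher after A485 and 0 lower, against 3.31% and 7.06% of all genes. The gene called was CASTOR2, an arginine sensor homologue (1.03), and the median was 0.11. After pyruvate 4 of 19 were called higher and 5 lower, against 31.0% and 23.1% of all genes. RRAGB (1.46), LAMTOR3 (1.75), SESN1 (1.42) and TSC1 (1.17) were higher, and CASTOR2 (-2.44), TSC2 (-1.18), LAMTOR2 (-1.27) and LAMTOR4 (-1.22) were among those lower. With the length and GC trend removed RRAGB (1.02) and CASTOR2 (-1.91) remained called, and the other 17 were not. Over all genes 15.7% were then called higher and 14.9% lower. After MS-275 0 of 22 were called, and RRAGB (-0.52, limma adjusted p 0.758) and SESN1 (-0.39, limma adjusted p 0.788) had the smallest p-values. Fibroblast markers after pyruvate had 2 of 11 called higher (DCN 1.33 and LUM 2.07) and 1 lower (THY1 -1.82), against 31.0% and 23.1% of all genes. With the trend removed DCN was at -0.61 and LUM at 0.76, neither called. There 1 other marker was called higher (S100A4 1.39) and 3 lower, against 15.7% and 14.9% of all genes. After MS-275 0 of 11 were called, with LUM at 2.18 (limma adjusted p 0.234) and COL3A1 at -1.41 (limma adjusted p 0.332).

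**Figure D5:**
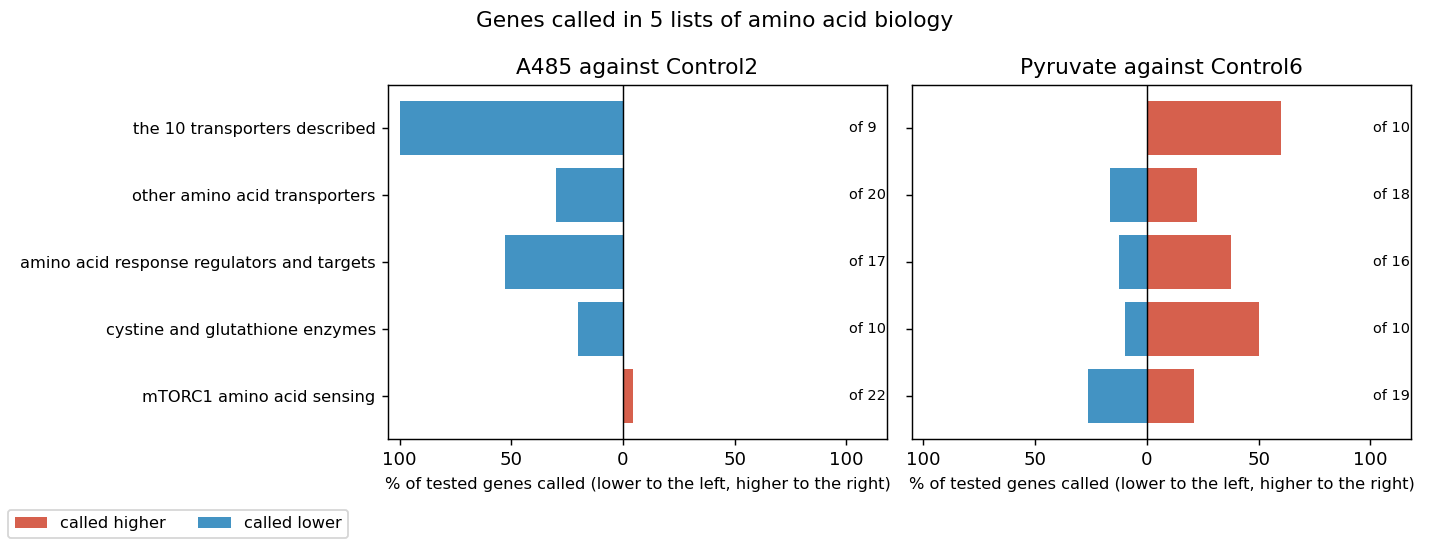
Share of tested genes called higher (right) or lower (left) in 5 lists after A485 and after pyruvate, with the number tested at the edge of each bar. After A485 9 of 9 tested transporters were called lower and 1 of 22 mTORC1 genes higher, and after pyruvate 6 of 10 transporters were called higher while the other 4 lists had calls in both directions.

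SLC7A14-AS1 was listed in the MS-275 comparison and reached at most 0.653% of the value of SLC7A14 there. CCDC24 shares 413 exonic bases with SLC6A9 and its values ran the opposite way, from 76.0 and 109 in control to 238 and 197 after A485 and from 236 and 175 to 41.3 and 30.5 after pyruvate. Without a stated strand setting the shared reads of these pairs cannot be told apart.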

How the data were processed

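RNA sequencing libraries came from total RNA, per the labels extracted with TRIzol and prepared with Illumina protocols. Per the study's methods and the submitters' processing notes, the authors trimmed reads with Trim Galore (0.6.10), aligned them with HISAT2 (2.2.1) to hg38, handled alignments with SAMtools (1.7), counted reads per gene with featureCounts (2.0.6) and normalized counts with DESeq2 (1.34.0). The deposited values are a signal, namely gene read counts divided by 1 size factor per library, in 1 gene list for each comparison. The annotation and strand setting are not given in the sources used here, and lists held 16683, 16417 and 12013 genes with at least 10, 10 and 20 reads in the second-highest library. Reads recovered by division (100% of values whole within 0.02) gave the depths. The 8 mouse muscle libraries of the series were not used here.

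Values were tested as log2(value + 1) for genes averaging at least 10 in a comparison's 4 libraries, with limma (3.58.1) in R (4.3.3), eBayes with an intensity trend and Benjamini-Hochberg adjustment, 2 libraries a group and no covariate. A fold change on this scale understates that of low genes. Replicates differed beyond sampling noise in every group (chi-square statistic per gene 4.54 to 456). Positions, exonic length and GC content came from GENCODE (release 44, hg38), and promoters from RefSeq. The tests were tested on simulated data. The members and lists were chosen with earlier results of these data known. Named genes were the 10 transporters and, from each other list, up to 4 called genes in each direction by adjusted p or, with none called, the 2 with the smallest p. ATF4, the response genes not called, S100A4, the NRF2 gene after A485 and the overlapping genes were named outside that rule, after their values were seen. So were GCLM and CBS after pyruvate. Alternatives covered the pseudocount, filter, scaling, trend, block, fold limit, shared fit, a length and GC trend (for the pyruvate gene lists and the differences between treatments chosen after seeing the data), left-out libraries, and edgeR (4.0.16) and DESeq2 (1.42.0) on the recovered reads. Other steps used Python (3.11.15), numpy (2.4.6), pandas (2.3.3) and matplotlib (3.10.9). Some overlapping features are not reported here.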

Additional observations from a re-analysis of the deposited data

How the results depend on the processing

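The limits here are 2 libraries a group, no stated pairing, and a replicate spread that was widest in the MS-275 comparison. The number of transporters called after A485 was 9, 5 with eBayes without the trend, 8 in a fit over all 12 libraries (SLC38A2 lost), and 3 to 6 with 1 library left out. edgeR and DESeq2 on the recovered reads called 9 after A485 and 7 after pyruvate, where SLC7A14 was added. After MS-275, 0 were called, 0 by edgeR, 2 by DESeq2 (SLC7A14 and SLC6A9), and 3 with the replicate number as a block. These were SLC7A11, higher (limma adjusted p 2.27e-06), and SLC7A14 and SLC6A9, lower (3.94e-09 and 9.02e-08). In a fit over all 12 libraries 1 was called (SLC6A9), and 0 to 1 with 1 library left out. Same-numbered libraries deviated from their group means with a correlation of 0.32, 0.73 and 0.002 in the A485, MS-275 and pyruvate comparisons, with only 2 pairs each and no label that pairs them. Under the block 2183 genes were called after MS-275 in place of 0, 487 in the shared fit and 575 by DESeq2. After pyruvate the number called was 6, and 5 to 8 under the alternatives. The count of effects differing between A485 and MS-275 was 4, 9 with the replicate block, 2 with equal library totals, 2 with quantile normalization and 1 to 4 with 1 library left out. The replicate block changed no other of these counts by more than 1.5 times. A485 against pyruvate stayed at 9 under the alternatives run, and MS-275 against pyruvate was 6, and 6 to 9, with 9 where the length and GC trend was removed, an alternative added after the data were seen. Calls over all genes after A485 were 1667, 840 without the trend, 2585 with equal totals (1670 higher and 915 lower), 117 to 844 with 1 library left out, and with quantile normalization 768 higher and 1025 lower. After pyruvate they were 6503, 3645 with the length and GC trend removed, 4402 higher and 1741 lower with equal totals, and 3139 higher and 3231 lower with quantile normalization.

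Signs changed for some transporters. After pyruvate, with the length and GC trend removed, SLC7A14 was at -0.53 and SLC7A11 at -0.95. After MS-275, SLC1A5 was at -0.043 with equal totals and -0.048 with quantile normalization. With 1 library left out after MS-275, SLC7A11 ranged from -0.14 to 2.39, SLC7A5 from -0.57 to 0.072, SLC3A2 from -0.21 to 0.55, SLC1A5 from -0.050 to 0.25, SLC38A1 from -0.63 to 0.52 and SLC38A2 from -1.76 to 0.41. The cause was not tested.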
